A study of Sus scrofa with 2 samples.

Results

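Expression of 5 genes for secreted signals was examined in cultured porcine adipose-derived stem cells (ADSCs), the fibroblast-like progenitors that grow out of digested fat. They were the bone morphogenetic protein (BMP) genes BMP2, BMP4 and GDF6, the BMP antagonist gene GREM1, and BDNF, which encodes brain-derived neurotrophic factor. The genes were taken by symbol, and all 5 were found among the 28155 genes named in the deposited files. ADSCs of Bama miniature pigs, without a stated genetic change or treatment, had been grown from fat of the chest for 3 generations and then frozen, per the labels. The labels put both single-cell RNA libraries in 1 group, and give neither an age nor the number of animals or cultures behind them. All p-values therefore measure only the spread between these libraries, which may be technical.

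Droplet libraries of this kind (Chromium 3′, chemistry v3.1) tag each captured messenger RNA molecule once at its 3′ end with a unique molecular identifier (UMI). UMI counts of different genes can thus be set side by side without correction for transcript length, where only 3′ ends are counted. Whether reads in introns were counted is not given, and counting them would change the level of long genes. Barcodes with at least 1000 genes were used as cells, 10559 in library 1 and 11984 in library 2, with a median of 19845 and 19652 UMIs. Barcode sequences shared by both libraries numbered 46. Each of 12 stromal marker genes was at or above 1 CPM (counts per 1000000 UMIs) in both libraries, whereas no marker of adipocytes, macrophages, lymphocytes, Schwann cells or skeletal muscle reached that level in both. The macrophage gene CSF1R (2.69 CPM) and the lymphocyte gene CD79A (2.41 CPM) passed it in library 1. Of other lists, the endothelial gene PECAM1 (11.4 and 15.01 CPM), the mural cell genes KCNJ8, ABCC9 and CSPG4 (13.1 and 16.5 CPM for CSPG4) and the epithelial genes KRT7 (76.1 and 71.5 CPM) and KRT19 (15.1 and 12.8 CPM) passed it in both.

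BMPs are dimeric ligands of the TGF-beta superfamily that bind paired type I and type II serine/threonine kinase receptors. The receptors phosphorylate SMAD1, SMAD5 and SMAD9, which enter the nucleus with SMAD4 and raise target genes such as the ID family. Extracellular antagonists, of which Gremlin-1 (the GREM1 product), Noggin and Chordin are the best known, hold the ligands away from their receptors, and in fat BMP2 and BMP4 are known for pushing progenitors towards the adipocyte or bone lineage. Neurotrophins signal through receptor tyrosine kinases and the receptor NGFR. BDNF acts mainly through NTRK2 and is also made by non-neural mesenchymal cells.

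In the RefSeq annotation of the pig genome Sscrofa11.1, BMP2 lies on chromosome 17 from 15750487 to 15762982 and BMP4 on chromosome 1 from 183415989 to 183422888. GREM1 lies on the same chromosome from 136617041 to 136629293. GDF6 lies on chromosome 4 from 40473015 to 40491142 and BDNF on chromosome 2 from 32623668 to 32679293. All are protein-coding, and none of these intervals overlaps another annotated gene. The counts do not show which part of a gene they come from.

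GREM1 was the most abundant of the 5 genes and GDF6 was close to undetected. GREM1 reached 20.8 CPM in library 1 (95% Poisson interval 20.2 to 21.5) and 25.5 CPM in library 2 (24.9 to 26.2). BMP4 was at 8.06 CPM (7.68 to 8.45) and 4.66 CPM (4.40 to 4.94). BDNF was at 5.23 CPM (4.92 to 5.54) and 4.24 CPM (3.98 to 4.50). These intervals cover counting error only. GREM1 was thus well above both in each library, whereas the levels of BMP4 and BDNF were close together in library 2 and further apart in library 1. BMP2 followed at 1.13 CPM (0.991 to 1.28) and 0.477 CPM (0.394 to 0.571). GDF6, which encodes growth differentiation factor 6, gave 11 and 12 UMIs in all, or 0.0524 and 0.0489 CPM. No cell class compared here held more than 5 GDF6 UMIs in a library, and GDF6 did not pass the filter on low counts in any comparison, so it is not followed further.

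**Figure D1:**
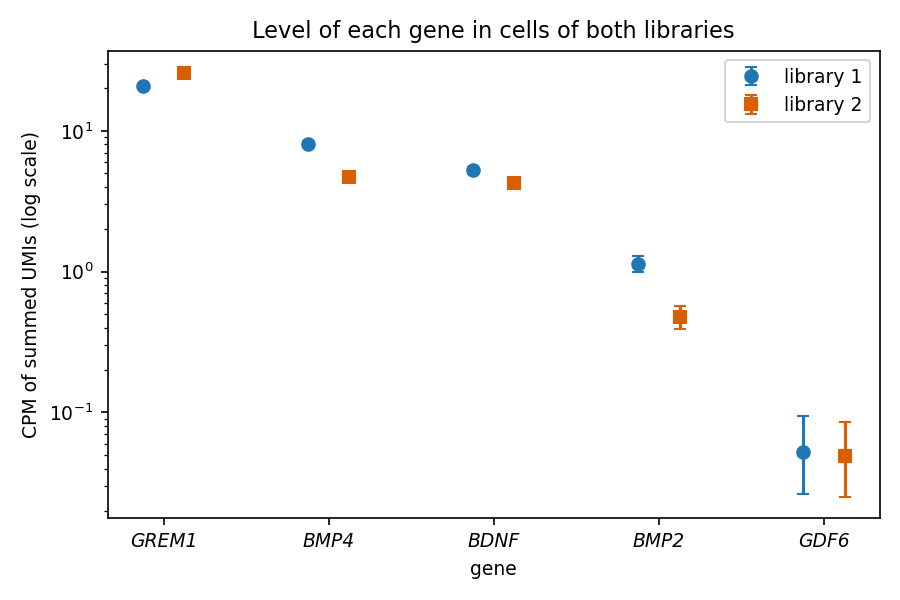
CPM of summed UMIs (log axis) of each gene in the cells of library 1 (circles) and library 2 (squares), with exact 95% Poisson intervals. GREM1 is highest at 20.8 and 25.5 CPM and GDF6 lowest at 0.0524 and 0.0489 CPM.

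Most cells showed none of the 5 transcripts. To compare cells of unlike depth, each cell with at least 5000 UMIs was thinned at random to 5000, which left 9581 and 11598 cells and set aside 978 and 386 shallower ones. At this depth a GREM1 UMI was seen in 7.797% of cells in library 1 (95% exact binomial interval 7.27 to 8.35) and 8.79% in library 2 (8.29 to 9.32), against 16.5% and 18.9% before thinning. For BMP4 the thinned shares were 3.65% and 1.97%, for BDNF 2.61% and 1.93%, and for BMP2 0.553% and 0.285%. Before thinning they were 14.0% and 8.67% for BMP4, 8.18% and 6.67% for BDNF, and 1.88% and 0.910% for BMP2. No cluster of a cell type that should lack these genes was present, so no background share from free RNA could be set beside these values.

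GREM1 molecules were unevenly spread over cells, while those of BMP4 were close to an even spread. After thinning, 28.4% of the GREM1-positive cells of library 1 and 31.3% of those of library 2 held 2 or more GREM1 UMIs. The same shares were 2.29% and 1.75% for BMP4, and 8.8% and 3.57% for BDNF. Before thinning, a single cell held up to 28 GREM1 UMIs in library 1 and 34 in library 2. The Fano factor, the variance of thinned UMIs over cells divided by their mean, is 1 where molecules fall on cells at random. It was 1.89 and 1.99 for GREM1, and only 23 of 5467 and 15 of 5493 genes with a mean of 0.05 to 0.3 thinned UMIs per cell had a higher one. For BMP4 it was 1.02 and 1.01, close to the medians of 1.03 and 1.02 over genes of similar mean. BDNF lay between them at 1.21 and 1.07, above 92.8% of similar genes in library 1 and 79.8% in library 2.

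**Figure D2:**
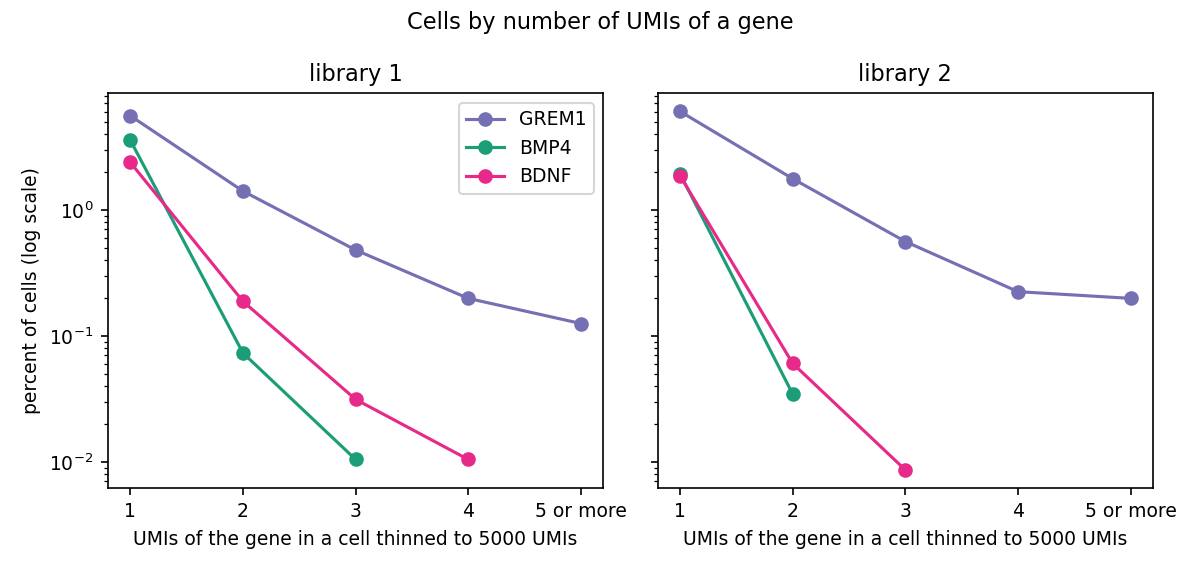
Percent of cells (log axis) with 1, 2, 3, 4, and 5 or more UMIs of GREM1, BMP4 and BDNF after thinning to 5000 UMIs, in each library, with classes that held no cell left blank. GREM1 extends to 5 or more UMIs in 12 cells of library 1 and 23 of library 2, whereas no cell of either library held 5 UMIs of BMP4 or BDNF.

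The transcripts rarely met in 1 cell. No member was seen in 85.9% of thinned cells in library 1 and 87.5% in library 2, 2 members in 46 and 49 cells, and 3 members in 1 and 2 cells. GREM1 and BDNF shared 15 cells in library 1, where 19.5 would hold both if the genes were unrelated, and 27 cells in library 2, where 19.7 would. GREM1 and BMP4 shared 19 cells (27.3 if unrelated) and 21 cells (20.1 if unrelated). After thinning, the libraries thus differed in the direction of both overlaps, from few cells. Before thinning, GREM1 and BDNF shared 157 cells in library 1 (147.3 if unrelated) and 187 in library 2 (153.5 if unrelated). GREM1 and BMP4 then shared 246 cells (255.2 if unrelated) and 210 cells (200.1 if unrelated). Depth was not evened out in these unthinned counts. Pearson r between members over cells, on log(1 + thinned UMIs), lay between -0.02 and 0.02 in both libraries. Counts this sparse pull r towards 0, so these values cannot show whether the members are related.

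The libraries differed most in BMP2 and BMP4. BMP2 was 2.37 times as high in library 1 as in library 2 (95% counting interval 1.89 to 2.98) and BMP4 1.73 times (1.60 to 1.86). BDNF was 1.23 times as high (1.13 to 1.34), and GREM1 was 1.22 times as high in library 2 (1.18 to 1.27). A ratio of at least 1.5 in favour of library 1 was found for 12.4% of the 15876 genes with at least 100 UMIs, and in favour of library 2 for 7.93%. BMP2 and BMP4 were on the first side of that limit, and BDNF and GREM1 within it. With 1 library on each side there is no test, and the ratios describe these libraries only.

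Other genes of BMP signalling were set beside the 5 members from lists of ligands, antagonists, receptors, SMAD proteins with their regulators, and targets, which were written with earlier results of these data known. Among 15 BMP ligand genes none reached 10 CPM in both libraries, and 3 reached 1 CPM in both. These were BMP4, BMP6 (1.45 and 2.38 CPM) and BMP8A (1.64 and 1.03 CPM). No UMI of BMP10, BMP15, GDF2 or GDF7 was seen in either library, which sets a one-sided 95% limit of 0.0143 and 0.0122 CPM (3 counts per library).

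Antagonists were more abundant than the ligands. Of 18 genes 9 reached 10 CPM in both libraries, led by FSTL1, a secreted follistatin-like protein, at 132 and 150 CPM. NBL1, a relative of Gremlin, was at 130 and 109 CPM, and CRIM1, a transmembrane protein that binds BMPs, at 116 and 126 CPM. GREM1 was in the middle of this group, near CHRDL1 (16.2 and 21.9 CPM), and above NOG, which encodes Noggin (4.29 and 3.01 CPM).

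Receptors and intracellular mediators were well represented. BMPR1A, BMPR1B and BMPR2, the main type I and type II receptors, were at 53.4 and 61.1, at 43.5 and 48.9, and at 33.8 and 38.8 CPM in libraries 1 and 2. All 12 genes of the SMAD list reached 10 CPM in both libraries. The target ID3 was at 1102 and 848 CPM and ID1 at 803 and 602 CPM, far above any ligand.

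On the neurotrophin side BDNF was above the ligand genes NTF4 (1.74 and 1.23 CPM) and NTF3 (0.639 and 0.607 CPM) in each library, and its main receptor was nearly absent. NTRK2, which encodes that receptor, was at 0.134 and 0.236 CPM, and neither NTRK3 nor NGFR exceeded 0.314 CPM. SORT1, which encodes the sorting receptor sortilin, was the only 1 of 8 receptor-list genes above 1 CPM, at 17.7 and 22.5 CPM. The convertase genes FURIN (13.4 and 10.96 CPM) and PCSK5 (100.4 and 80.3 CPM), whose products cut BMP and neurotrophin precursors, were also detected.

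Across these lists 73 genes had at least 100 UMIs, and 19 of them (26.0%) were at least 1.5-fold higher in library 1, beside 12.4% of all genes. Another 6 (8.22%) were at least 1.5-fold higher in library 2, beside 7.93% of all genes. All 5 ligand genes with that many UMIs passed the limit, BMP2, BMP4, BMP7 and BMP8A towards library 1 and BMP6 towards library 2. Among targets 8 of 16 were higher in library 1, including ID2 (314 and 178 CPM) and HEY1 (6.44 and 1.59 CPM). The antagonist DAND5, singled out after its value was seen, was at 4.51 and 0.187 CPM, a ratio of 24.1 (17.9 to 33.1). BMPER, whose product binds BMPs and modulates them, went the other way at 20.4 and 40.9 CPM.

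GREM1 and BDNF were lower in cycling cells than in non-cycling cells, and BMP4 was not. A cell was called cycling when 3 or more of 15 core genes of cell division, such as MKI67 and TOP2A, kept a UMI after thinning, and non-cycling when none did. This gave 3817 cycling and 1859 non-cycling cells in library 1, and 4637 and 2507 in library 2. Set from full counts, the same rule left only 302 and 483 non-cycling cells in libraries 1 and 2. Most cells called non-cycling thus held a UMI of a core gene before thinning. UMIs were summed per library and class and tested with edgeR's quasi-likelihood test, with the library as a block. Genes were called that had an adjusted p under 0.05 (Benjamini-Hochberg), a log2 fold change of at least 0.5 in size and the same sign in both libraries. Of 16993 genes tested 9.95% were called lower and 8.51% higher in cycling cells.

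In library 1, cycling cells held 12.7 and non-cycling cells 29.2 CPM of GREM1, and in library 2 they held 17.5 and 35.2 CPM. Both cycling values lay under both non-cycling values. It fell by 1.16 on the log2 scale in cycling cells (SE 0.07, 2.24-fold, edgeR adjusted p = 4.65e-64). The thinned share of GREM1-positive cells was 5.66% against 9.47% in library 1 and 6.36% against 11.01% in library 2.

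BDNF was at 2.88 against 7.15 CPM in library 1 and 2.21 against 7.23 CPM in library 2, again with no overlap between classes. It fell by 1.58 (log2, SE 0.12, 2.98-fold, edgeR adjusted p = 2.49e-38) in cycling cells. For BMP4, cycling cells of library 1 held 9.33 and non-cycling ones 6.34 CPM, against 5.34 and 4.35 CPM in library 2. Its difference was 0.37 (log2, SE 0.10, edgeR adjusted p = 0.000829), under the size limit of 0.5. BMP4 was thus higher in cycling cells within each library, while the classes overlapped between libraries, whose BMP4 levels differed. BMP2 was at 0.745 against 1.67 CPM in library 1 and 0.368 against 0.459 CPM in library 2, which rests on 23 UMIs in the non-cycling cells of library 2. It met the rule with -0.89 (log2, SE 0.28, edgeR adjusted p = 0.00407), but the classes overlapped between libraries.

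The calls for GREM1 and BDNF ended in 1 of 9 alternative fits each, the one without the library block, and their adjusted p over the 9 ranged from 8.31e-62 to 0.12 and from 2.35e-39 to 0.0643 by edgeR and DESeq2. BMP2 lost its call in 4 of 9 (adjusted p 0.00123 to 0.633), and turned to +0.69 when the classes were set from full counts instead of thinned ones, with edgeR. Each fit had 1 residual degree of freedom, so very small p-values rest on pooling the spread over genes. Cycling cells were deeper, with median UMIs of 22805 against 20012 in library 1 and 20821 against 20000 in library 2. Mural cell markers moved with these values. Their sum was 22.7 against 28.0 CPM in library 1 and 32.0 against 41.5 CPM in library 2 (cycling against non-cycling), with 3 of 5 tested markers lower (NOTCH3, KCNJ8 and ABCC9). HIGD1B, a pericyte marker, was under 0.05 CPM in both libraries. Of 12 stromal markers 4 were also lower in cycling cells (COL1A1, COL1A2, COL3A1 and DCN). Endothelial markers summed to 10.8 against 12.0 CPM and 13.4 against 15.4 CPM. The part of these markers in the result was not tested.

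**Figure D3:**
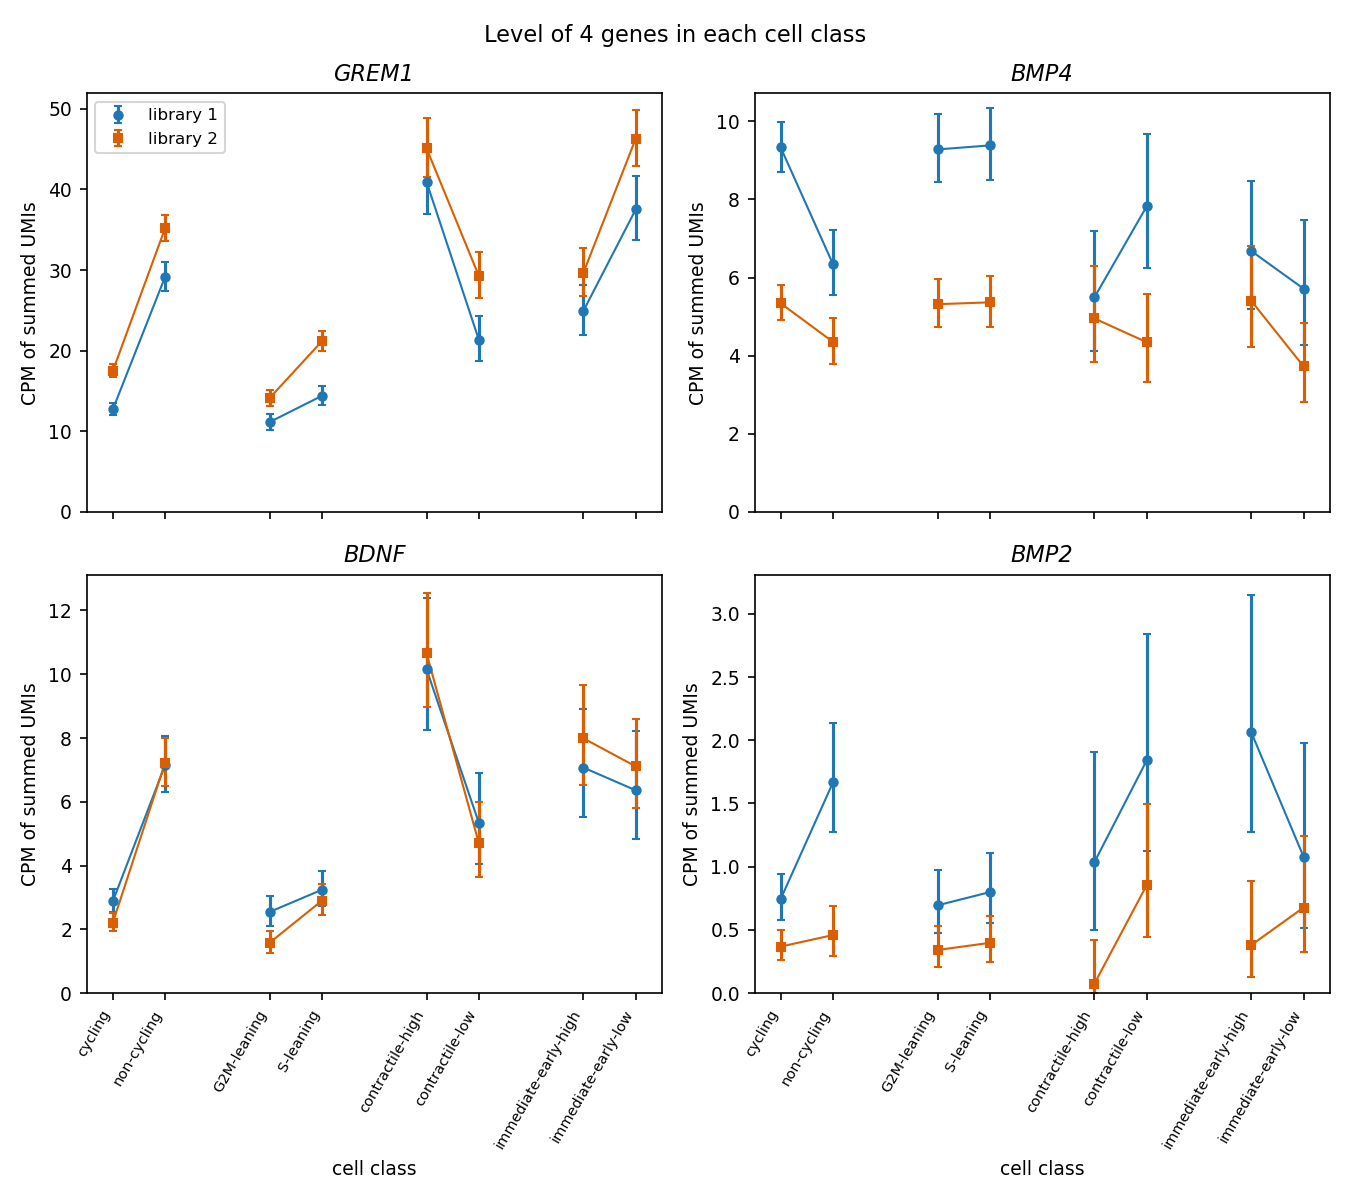
CPM of summed UMIs of GREM1, BMP4, BDNF and BMP2 in each cell class, in library 1 (circles) and library 2 (squares), with exact 95% Poisson intervals and lines joining the classes of 1 comparison. GREM1 is at 12.7 and 17.5 CPM in cycling cells and 29.2 and 35.2 CPM in non-cycling cells, and BDNF is at 10.2 and 10.7 CPM in contractile-high cells and 5.34 and 4.70 CPM in contractile-low cells.

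Of the 97 list genes found, members included, 79 were tested, and 21 were lower and 2 higher in cycling cells. Over all genes tested, 9.95% were called lower and 8.51% higher. The median log2 fold change of the list genes was -0.28, beside -0.01 over all genes tested. Among antagonists 6 of 15 fell, GREM1 included. BMPER fell by 1.21 (27.2 to 13.0 CPM in library 1, 60.5 to 26.2 CPM in library 2), CHRD, which encodes Chordin, by 0.96, KCP by 0.92, NOG by 0.62 and CRIM1 by 0.53. FST, the gene of the activin and BMP antagonist Follistatin, was the exception among antagonists called. It rose by 1.27 (log2, SE 0.08, edgeR adjusted p = 9.61e-54), from 7.77 to 19.6 CPM in library 1 and from 7.19 to 17.9 CPM in library 2.

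Among receptors and co-receptors, ACVRL1 fell by 0.91, ACVR2A by 0.77 and NEO1, a co-receptor bound by the repulsive guidance molecules, by 0.66. RGMB, which encodes one of those molecules, rose by 0.73. The inhibitory SMAD gene SMAD6 fell by 0.80 and the SMAD co-repressor gene SKIL by 0.52. Of 17 targets tested 5 were lower. HEY2 fell by 1.07, DLX3 by 0.82, RUNX2, the gene of an osteoblast transcription factor, by 0.73, ID3 by 0.60 and SP7, another osteoblast factor, by 0.56. NTF4, which encodes neurotrophin-4, fell by 0.90 and its relative BDNF by 1.58. NTRK3 fell by 1.36, from 0.376 CPM in library 1 and 0.539 CPM in library 2. PCSK6, a convertase gene, fell by 0.67.

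Within cycling cells, those leaning to G2 and M phase were set against those leaning to S phase by which of 2 lists of phase genes held more thinned UMIs relative to its mean. The groups held 1930 and 1887 cells in library 1 and 2391 and 2246 in library 2. Of 16160 genes 2.64% were called lower and 1.36% higher in G2M-leaning cells by edgeR. BDNF was at 2.55 against 3.24 CPM in library 1 and 1.58 against 2.90 CPM in library 2. It met the rule with -0.57 (log2, SE 0.16, edgeR adjusted p = 0.00966), although 4 of 7 alternatives ended the call (adjusted p 0.00142 to 1, edgeR and DESeq2).

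GREM1 was at 11.2 against 14.4 CPM in library 1 and 14.1 against 21.2 CPM in library 2. It differed by -0.46 (log2, SE 0.07, edgeR adjusted p = 9.03e-06), just under the size limit. BMP4 was at 9.28 and 9.38 CPM in library 1 and 5.32 and 5.37 CPM in library 2, a log2 difference of 0.02 with a 95% interval from -0.15 to 0.18. BMP2 differed by -0.18, with an interval from -0.82 to 0.47. Intervals of log2 differences, here and below, use a normal approximation and can be too narrow. Of the other list genes only MSX2, a BMP target, was called higher (0.56) and TLL1, a protease gene of the Chordin-cleaving family, lower (-0.78).

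In non-cycling cells GREM1 and BDNF were higher where contractile genes were high. Cells were ranked within each library by their thinned UMIs of 12 contractile genes, among them ACTA2 and TAGLN, and the top 25% (503 and 627 cells) were set against the bottom 25% (532 and 727). Of 13387 genes tested 5.16% were called higher and 4.65% lower in the contractile-high cells. The class is a range of a score and not a cell type. In library 1, 129 cells (6.94% of non-cycling cells) lay exactly at the lower limit and 44 at the upper one. In library 2, 148 cells lay at the lower limit and none at the upper one.

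GREM1 was at 40.9 CPM in contractile-high and 21.4 CPM in contractile-low cells of library 1, and at 45.1 and 29.3 CPM in library 2. Both high values lay above both low ones, and GREM1 rose by 0.80 (log2, SE 0.11, 1.74-fold, edgeR adjusted p = 8.04e-07). BDNF was at 10.2 against 5.34 CPM in library 1 and 10.7 against 4.70 CPM in library 2. It rose by 1.10 (log2, SE 0.18, 2.14-fold, edgeR adjusted p = 4.03e-05), again without overlap. Over 8 alternatives by edgeR and DESeq2 the adjusted p of GREM1 ranged from 1.71e-12 to 0.346, and 1 ended the call. For BDNF it ranged from 1.6e-07 to 0.252, and 2 ended it.

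BMP4 was at 5.49 and 7.82 CPM in library 1 and 4.95 and 4.34 CPM in library 2 in high and low cells. The libraries went opposite ways, and the log2 difference was -0.13 with a 95% interval from -0.55 to 0.29. BMP2 was at 1.04 against 1.84 CPM and 0.0750 against 0.855 CPM, from 1 to 20 UMIs per class and library, and did not pass (-1.39, SE 0.58, edgeR adjusted p = 0.0992). Mural markers were again higher on the side of GREM1. Their sum was 33.3 against 23.1 CPM in library 1 and 46.3 against 36.7 CPM in library 2, with 2 of 4 tested markers called (NOTCH3 and ABCC9) and RGS5 at 0.119 and 0.0693 CPM over all cells. The epithelial and mesothelial sum went the other way, 71.2 against 101.8 CPM and 58.7 against 96.9 CPM, with KRT19 called lower. EPCAM, KRT8 and KRT18 were under 0.05 CPM. Endothelial markers summed to 10.9 against 14.7 CPM and 9.90 against 19.9 CPM, with CDH5 under 0.05 CPM over all cells, and adipocyte markers to 1.45 against 0.921 CPM and 4.43 against 0.783 CPM. The part of these markers in the result was not tested.

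In contractile-high cells 12 of the 68 list genes tested rose and 6 fell, beside 5.16% and 4.65% of all genes tested. The median log2 fold change of the list genes was 0.07, beside 0.01 over all genes. The antagonist genes BMPER and CRIM1 rose with GREM1, by 1.11 and 0.97, and FST fell by 1.10. The largest changes were in targets, HEY2 with a rise of 3.26 and SP7 with a rise of 2.46, both from under 1 CPM in contractile-low cells. RUNX2 rose by 0.76 and ID4 by 0.56, while ATOH8 fell by 0.68 and TBX3 by 0.57. Among receptors and co-receptors ACVRL1 rose by 1.32, BMPR1B by 0.98 and NEO1 by 0.74, while TGFBR3, which encodes the co-receptor betaglycan, fell by 0.89 and RGMB by 0.63. PCSK6 fell by 0.54.

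GREM1 was lower in non-cycling cells with many transcripts of immediate-early genes, which are fast-induced transcription factor genes and the like, such as FOS and EGR1. The top 25% for 20 such genes held 505 and 679 cells and the bottom 25% 512 and 725. Only 0.0604% of 13246 genes were called lower and 0.619% higher. GREM1 was at 24.9 against 37.5 CPM in library 1 and 29.7 against 46.3 CPM in library 2, with no overlap. It met the rule with -0.60 (log2, SE 0.11, 1.52-fold, edgeR adjusted p = 0.0457). The same sign was found in each of 8 alternatives, but 5 ended the call (adjusted p 8.51e-05 to 0.999, edgeR and DESeq2). BDNF differed by 0.18 (95% interval -0.18 to 0.53), BMP4 by 0.40 (-0.03 to 0.82) and BMP2 by 0.28 (-0.75 to 1.32), all on the log2 scale and none called. Of the other list genes PCSK6 (0.63) and PLAU, the gene of the protease urokinase (0.61), were called higher.

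Clusters of all cells were built without any gene of the lists. Across them GREM1 and BDNF were both higher in cluster 1 than in cluster 2, and lower in clusters 3, 4 and 5. The orders of the genes differed only in cluster 6, with few UMIs of either, and in clusters 3 and 4, which overlapped. Clusters rest on the same cells, so levels in them are a description without a test, and clusters are given by number with their leading genes. GREM1 was highest in cluster 1 (led by CEMIP and ALDH1A3) with 35.0 CPM in library 1 and 39.8 CPM in library 2, then in cluster 2 (PRSS23 and TAGLN) with 26.2 and 31.5 CPM. The drop from cluster 1 to cluster 2 was seen in both libraries. Cluster 2 also lay above clusters 3, 4 and 5 in both libraries. GREM1 was at 13.7 and 20.2 CPM in cluster 4 (TOP2A and UBE2C), 11.7 and 15.1 CPM in cluster 3 (ALDH1A1 and NTM), and 11.07 and 12.8 CPM in cluster 5 (CCNB1 and CDC20). Both values of cluster 4 lay above both of cluster 5, while cluster 3 overlapped each of them.

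BDNF was highest in cluster 6 with 16.4 and 16.9 CPM, but this small cluster of shallow cells (median 4318 and 3437 UMIs) gave only 23 and 8 BDNF UMIs. GREM1 there was at 26.4 and 8.45 CPM. BDNF then fell in order from cluster 1 (8.998 and 7.60 CPM) to cluster 2 (5.81 and 5.56 CPM) and cluster 3 (4.29 and 2.31 CPM), while clusters 3, 4 and 5 overlapped. For BMP4 and BMP2 no cluster had both library values above both values of the next cluster in the order. This rule does not pair the libraries, and both genes were higher in library 1, so it cannot show differences within a library. BMP4 in cluster 4 was at 9.70 CPM in library 1 (Poisson interval 8.85 to 10.6) and 6.42 CPM in library 2 (5.82 to 7.08). In cluster 1 it was lower within each library, at 6.42 CPM (5.75 to 7.15) and 3.27 CPM (2.84 to 3.74). BMP4 ran from 6.42 to 11.4 CPM over clusters 1 to 6 in library 1 and from 3.27 to 6.42 CPM in library 2. BMP2 was at 1.57 and 0.970 CPM in cluster 3, which in each library was its highest value among these clusters. Cluster 7 held 21 cells in library 2 and was left out of the order.

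**Figure D4:**
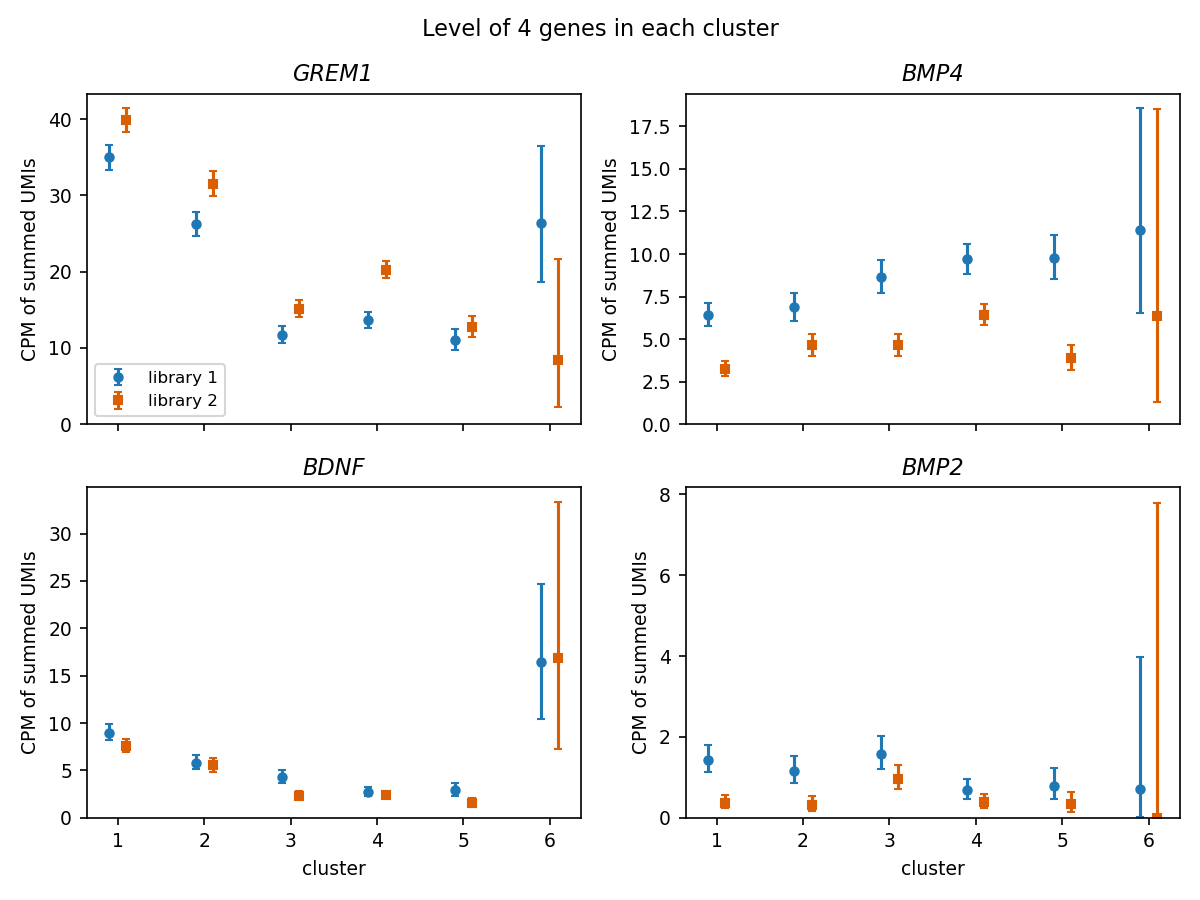
CPM of summed UMIs of GREM1, BMP4, BDNF and BMP2 in clusters 1 to 6, in library 1 (circles) and library 2 (squares), with exact 95% Poisson intervals. GREM1 drops from 35.0 and 39.8 CPM in cluster 1 to 11.07 and 12.8 CPM in cluster 5, and the wide intervals in cluster 6 come from few UMIs.

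At the finer Leiden resolution of 0.8 a small group split off in which GREM1 and BDNF parted. Its 281 and 426 cells were led by CCL5, MUC12 and GPX3, and held the highest GREM1 level of that resolution, 45.0 and 54.3 CPM. BDNF there was at 4.83 and 3.42 CPM. The next cluster for GREM1 (ALDH1A3 and CEMIP) was at 35.4 and 38.8 CPM of GREM1 and 11.14 and 8.62 CPM of BDNF.

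Non-cycling cells with a GREM1 UMI after thinning (176 and 276) were then set against those without (1683 and 2231). BDNF, BMP4 and BMP2 were not called. BDNF was at 3.59 against 7.50 CPM in library 1 and 8.54 against 7.07 CPM in library 2, so the libraries went opposite ways. The log2 difference was -0.17 with a 95% interval from -0.61 to 0.28. BMP4 differed by 0.03 (-0.45 to 0.51) and BMP2 by -0.04 (-1.26 to 1.18). Of 14400 genes 0.438% were called higher and 0.41% lower in GREM1-positive cells. Adipocyte markers summed to 0.897 against 0.974 CPM in library 1 and 6.31 against 1.43 CPM in library 2 (positive against negative cells), and their part in these values was not tested.

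Among genes called that reached 10 CPM in the higher class, the largest falls in GREM1-positive cells were in ALDH1A1, an aldehyde dehydrogenase gene that makes retinoic acid, and in LCN2, C4A, TXNIP and KRT19. ALDH1A1 was at 12.6 against 45.0 CPM in library 1 and 16.9 against 42.2 CPM in library 2, and fell by 1.53 (log2, SE 0.12, edgeR adjusted p = 1.15e-16). The largest rises among such genes were in GPX3, an extracellular glutathione peroxidase gene (26.3 against 6.94 CPM and 16.5 against 9.49 CPM), PADI4, WNT5B, FMN1 and RRAD, by 1.28, 1.08, 1.08, 1.03 and 1.02. In cycling cells, where 216 and 295 cells were GREM1-positive, 0.219% of 15949 genes were called higher and 0.15% lower. ALDH1A1, KRT19 and FMN1 were called there in the same directions. In all 8 genes were called higher in both kinds of cell, 12.7% of the 63 in non-cycling and 22.9% of the 35 in cycling cells, and 7 were lower in both, 11.9% of 59 and 29.2% of 24. Of the list genes only NEO1 was called, with a rise of 0.54 in non-cycling cells.

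FMN1, the formin-1 gene, is also a neighbour of GREM1 on chromosome 1, from 136696353 to 137163532, which is 67.1 kb from its end. This was noticed in the values, and the other genes within 500 kb were then read. FMN1 was at 37.7 CPM in GREM1-positive and 19.6 CPM in GREM1-negative non-cycling cells of library 1, and at 57.4 and 26.6 CPM in library 2 (log2 1.03, SE 0.10, edgeR adjusted p = 1.99e-13). In cycling cells it was at 27.2 against 14.96 CPM and 45.3 against 22.6 CPM (log2 0.93, SE 0.09, edgeR adjusted p = 7.68e-08). Positive cells of library 1 lay above negative cells of either library in both kinds of cell.

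SCG5, a secretory granule chaperone gene 27.0 kb on the other side, was at 5.38 against 2.01 CPM and 3.71 against 1.05 CPM in non-cycling cells (log2 1.60, SE 0.35, edgeR adjusted p = 0.00141). In cycling cells the difference was 1.06 (SE 0.34) and did not pass (edgeR adjusted p = 0.147). Of 10 annotated genes within 500 kb of GREM1 5 were tested, and the other 3 (ARHGAP11A, AQR and ZNF770) were not called in either kind of cell. Around BMP4 and BDNF 6 and 5 genes were tested against the detection of that gene in the same way, and 0 were called by edgeR or DESeq2, with 0 and 1 at an unadjusted p under 0.05. Over 9 alternatives the adjusted p of FMN1 ranged from 1.38e-21 to 1 and 1 ended the call, and over 8 that of SCG5 ranged from 1.2e-09 to 1 and 4 ended it (edgeR and DESeq2).

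**Figure D5:**
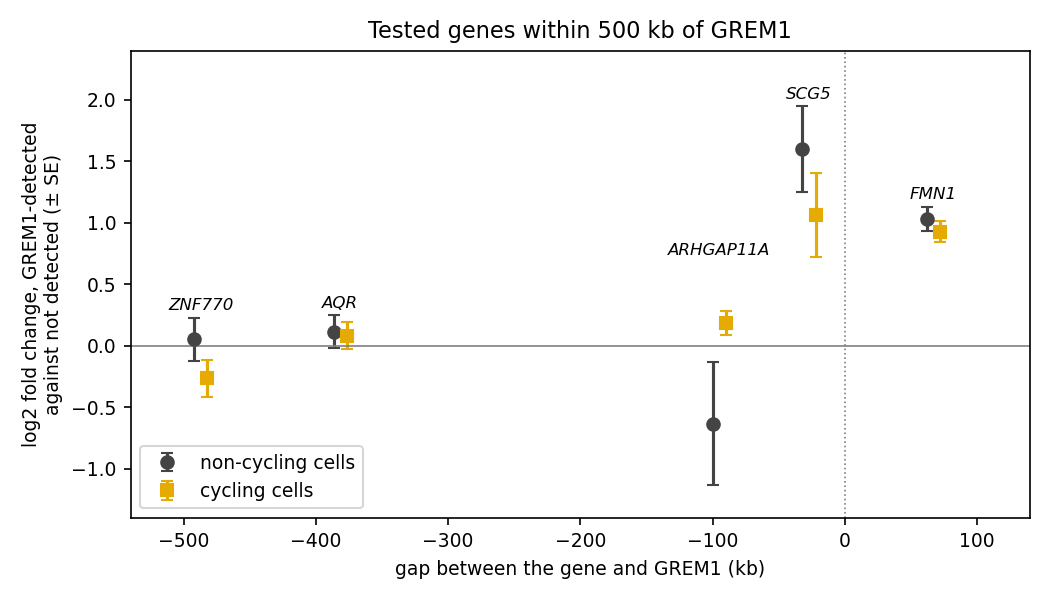
Log2 fold change (± SE) between GREM1-positive and GREM1-negative cells for the 5 tested genes within 500 kb of GREM1, against the gap to GREM1 in kb, with negative gaps on the side of SCG5. SCG5 (1.60 and 1.06) and FMN1 (1.03 and 0.93) lie above 0 in non-cycling cells (circles) and cycling cells (squares), and the 3 genes further away lie between -0.63 and 0.18.

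BDNF-positive non-cycling cells were few, 62 and 81 against 1797 and 2426. Of 14367 genes tested 0.174% were called higher and 0.153% lower in them. GREM1 was at 16.8 against 29.6 CPM in library 1 and 46.6 against 34.8 CPM in library 2, and thus went opposite ways, with a log2 difference of -0.01 (95% interval -0.34 to 0.33). BMP4 differed by -0.24 (-1.09 to 0.61) and BMP2 by -1.55 (-4.46 to 1.35), from 9 and 4 BMP4 UMIs and 1 and 0 BMP2 UMIs in the positive cells. IGFBP2, the gene of an insulin-like growth factor binding protein, was at 54.5 against 106.8 CPM and 53.4 against 98.2 CPM, a fall of 0.95 (log2, SE 0.12, edgeR adjusted p = 1.43e-11). SNCG, CRYAB, AKAP12 and MMP16 fell by 1.65, 0.96, 0.80 and 0.77, and KCNAB2, MCM2, EFCAB2, MICAL2 and MTERF1 rose by 1.18, 1.13, 0.84, 0.76 and 0.75. Of 68 list genes tested edgeR and DESeq2 called 0, and 7 had an unadjusted p under 0.05 in edgeR.

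BMP4-positive cells were compared among cycling cells (170 and 99 against 3647 and 4538), because library 2 held only 48 among non-cycling cells. Of 16189 genes 0.0741% were called higher and 0.0309% lower. ESM1, the gene of the secreted proteoglycan endocan, was at 37.5 against 23.7 CPM in library 1 and 35.6 against 19.1 CPM in library 2 and rose by 0.73 (log2, SE 0.12, edgeR adjusted p = 5.38e-06). LGR5, an R-spondin receptor gene, rose by 1.16, and TMEM260, VCAM1 and ISG15 fell by 1.08, 0.75 and 0.51. GREM1 was at 6.96 against 13.0 CPM and 19.3 against 17.4 CPM and was not called (-0.36, edgeR adjusted p = 0.946). BDNF was at 0.746 against 2.98 CPM and 1.64 against 2.22 CPM, without overlap but from few UMIs in the positive cells. It was not called either (-1.31, SE 0.54, edgeR adjusted p = 0.771). BMP2 differed by 0.34 (95% interval -1.53 to 2.21). Of 74 list genes tested edgeR and DESeq2 called 0, and 3 had an unadjusted p under 0.05 in edgeR. BMP2 and GDF6 had too few positive cells for such a comparison.

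The genes whose thinned UMIs followed each member most closely over single cells were found among 7366 genes by the smaller Pearson r of the libraries, on log(1 + UMIs) over 9581 and 11598 cells. For GREM1 the first was CALD1, a contractile gene (r = 0.10 and 0.09), followed by THBS2, SERF2, LGMN and SFRP2. For BDNF it was CALD1 again (r = 0.06 in both), followed by ADAM12, AUTS2, TPM1 and TAGLN. BMP4 was followed most closely by ESM1 and BMP2 by IL13RA1, each with r near 0.03. These values share cells and depth within each library, and r of this size in sparse counts describes little of the variation.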

How the data were processed

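UMI counts per gene and barcode, whole numbers without normalization, were deposited by the authors for both libraries. Per the file headers, Cell Ranger 7.0.0 made them; the submitters' processing notes name Cell Ranger 7.00 and the build Sscrofa11.1. What annotation was used, how intronic reads were treated and how cells were called is not given in the sources used here. Counting reads in introns, or not, would change the level of long genes such as FMN1.

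The members and all gene lists were chosen with earlier results of these data known. Barcodes with at least 1000 genes were kept, and no doublets were removed. Total UMIs in cells were 209737159 in library 1 and 245421850 in library 2, so that 3 counts equal 0.0143 and 0.0122 CPM. CPM are summed counts per 1000000 UMIs of the same cells. Poisson and binomial intervals (95%, exact) cover counting error only, and intervals of log2 fold changes come from the SE by a normal approximation. With so few degrees of freedom the latter can be too narrow. For the receptor gene ACVR1 in immediate-early-high cells the interval was 0.017 to 0.489, while the unadjusted edgeR p was 0.0645.

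Classes were set on thinned counts (seeded), and full counts were summed per library and class. They were tested with edgeR 4.0.16 in R 4.3.3 (quasi-likelihood, robust, TMM scaling, filterByExpr, Benjamini-Hochberg over all genes tested), with genes that define a class left out of the counts of called genes. The library was a block because both classes come from the same libraries, which is where the pairing comes from. The procedure was first tested on data simulated from the comparison of cycling and non-cycling cells only, with changes set in genes that were not sparse. It was not tested in this way for the smaller classes or for genes with few counts. Clustering used scanpy 1.11.5 with 2000 variable genes, 30 principal components, 15 neighbours and Leiden resolution 0.4.

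Named genes were the members in every comparison that tested them (GDF6 passed the filter in none) and other list genes that were called. In comparisons by detection, the 5 largest rises and 5 largest falls at 10 CPM or more in the higher class were also named, and, for likeness, the 5 genes with the highest smaller r among those with at least 0.05 thinned UMIs per cell in each library. A comparison by detection needed 50 positive cells in each library. Alternatives were DESeq2 1.42.0, RLE scaling, no filter, no block, thinned counts, another seed, other class limits, cycling cells, a single library, a minimum of 2000 genes, shares without thinning, resolution 0.8, and leaving out shared barcodes. Of 98 list genes 97 were found by symbol. Some list genes enter the counts but are not reported here by name.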

Additional observations from a re-analysis of the deposited data

Results flagged for a closer look

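Barcodes with under 1000 genes, 1692 in library 1 and 972 in library 2, were not used above, yet held more than 3 UMIs of several members. There GREM1 reached 31.8 CPM in library 1 (57 UMIs, 95% Poisson interval 24.1 to 41.2) and 13.4 CPM in library 2 (12 UMIs, 6.93 to 23.4), beside 20.8 and 25.5 CPM in cells. BMP4 was at 6.70 CPM in library 1 and BMP2 at 2.23 CPM, from 12 and 4 UMIs. BDNF was at 4.47 and 8.94 CPM in libraries 1 and 2, from 8 UMIs in each. The GREM1 interval lay above the level in cells in library 1 and below it in library 2, and each of the other intervals contained the level in cells of its library.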

How the results depend on the processing

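Depth limits BMP2 and GDF6 most, since BMP2 rests on 117 UMIs in library 2 and GDF6 on 12, and with 2 libraries each test has 1 residual degree of freedom. Of 376 values recomputed under alternatives for 54 results, 288 kept their direction, call or size.

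Without the replicate block fewer genes were called in every comparison. In cycling cells 327 were higher and 71 lower, and GREM1 (-1.16), BDNF (-1.56) and BMP2 (-0.97) lost their calls. In contractile-high cells 5 were higher and 1 lower, and GREM1 (0.80) and BDNF (1.09) lost theirs. No gene was called for G2M-leaning cells (BDNF -0.54), immediate-early-high cells (GREM1 -0.60) or detection of GREM1, BDNF or BMP4 by edgeR, where 675, 255, 192, 196 and 123 genes had an unadjusted p under 0.05, and BMP4 turned to -0.0213 for GREM1 detection.

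DESeq2 called 1034 genes lower in cycling cells (BMP2 -0.83), 145 higher and 90 lower in G2M-leaning cells (BDNF -0.57), 317 higher and 250 lower in contractile-high cells (BDNF 1.09), and 51 higher and 1 lower in immediate-early-high cells (GREM1 -0.60). For detection it called 10 higher and 10 lower (GREM1), 2 and 3 (BDNF), and 3 and 0 (BMP4). RLE scaling left 6 higher and 0 lower in immediate-early-high cells (GREM1 -0.60), and turned GREM1 to 0.00441 for BDNF detection. Without a filter 280 and 98 were called in immediate-early-high cells.

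With thinned counts tested, BMP2 lost its call in cycling cells (-0.54) and BDNF in G2M-leaning cells (-0.70), where 215 genes were lower. In contractile-high cells 404 were then lower, in immediate-early-high cells 184 higher and 32 lower, with GREM1 detected 20 and 25, with BDNF detected 4 and 2, and BMP4 turned to -0.61 for GREM1 detection. Another random seed gave 195 and 42 in immediate-early-high cells (GREM1 -0.44, call lost), 5 lower with BDNF detected, and BDNF -0.41 (call lost) and BMP2 0.15 (sign turned) in G2M-leaning cells. It also turned BMP2 to 0.55 for GREM1 detection and BMP4 to 0.0939 for BDNF detection. Without shared barcodes 132 were higher and 30 lower in immediate-early-high cells, and BMP2 turned to 0.00202 for GREM1 detection.

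With classes from full counts 1003 were lower in cycling cells and BMP2 turned to 0.69. Wider classes, the top and bottom 33.3% in place of 25%, left 9 higher and 0 lower in immediate-early-high cells (GREM1 -0.57, call lost; BDNF turned to -0.10). In cycling cells GREM1 detection gave 35 higher and 24 lower, with BMP4 at -0.16 and BDNF at 0.27. At resolution 0.8 the highest cluster mean was 49.7 CPM for GREM1 and 14.4 CPM for BDNF, against 37.4 and 16.7 CPM. From a single library, BMP2 in contractile-high cells ran from -2.91 to -0.77 and GREM1 in immediate-early-high cells from -0.60 to -0.60. The causes of these differences were not tested. BDNF and BMP4 detection in the other class of cells, and at 2 thinned UMIs, was not run for lack of cells.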
